A study of Mus musculus with 1479 samples.

Results

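The enzymes described here cross-link and trim fibrillar collagen, and 10 mouse genes make up the set: the lysyl oxidases Lox, Loxl1, Loxl2, Loxl3 and Loxl4, the lysyl hydroxylases Plod1, Plod2 and Plod3, and the procollagen C-proteinase enhancers Pcolce and Pcolce2. They were taken by name from a table of 46517 genes, of which 29351 had at least 1 read, and all 10 were measured. The table held 1479 single cells of the mouse bladder, prepared with the full-length Smart-seq2 protocol and placed by the study in 11 numbered clusters. The cells came from male mice aged 10 to 20 weeks and of 5 lines, none of them treated. The C57BL6 line carried no reporter, PdgfrbGFP, Acta2GFP and Cspg4dsRED carried a fluorescent transgene driven by sequences of the named gene, and in PdgfraGFP a nuclear green fluorescent protein was placed in the Pdgfra gene itself. All lines had been backcrossed to C57Bl6/J, and the study also combined strains, so that a line name may not give every allele a mouse carried. The study sorted cells on reporter fluorescence or on antibody staining for either PDGF receptor, left out cells that stained for the endothelial protein CD31, and added elastase to the dissociation only for Acta2-positive cells of Acta2GFP mice. No label names an animal, so the line was used as the unit, and the spread over lines may hold differences of plate and sort as well as of mice. There were 810 PdgfrbGFP cells on 3 plates, 203 Cspg4dsRED cells, 190 C57BL6 cells, 147 PdgfraGFP cells and 129 Acta2GFP cells.

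Fibrillar collagen is made as procollagen, hydroxylated and folded in the endoplasmic reticulum, trimmed at both ends outside the cell and then assembled into fibrils. Lysyl hydroxylases modify lysines of the chain, PLOD2 being the member that acts on the telopeptides, and lysyl oxidases turn lysines and hydroxylysines into aldehydes from which covalent cross-links form in collagen and elastin. PCOLCE and PCOLCE2 have no protease activity and speed up the removal of the C-propeptide by BMP1 and its relatives. In the bladder wall these cross-links bear on how far the organ stretches as it fills, and fibroblasts are the main source of its collagen.

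Pcolce and Pcolce2 are related genes of like function whose levels parted in the data below, and for this reason the bases ahead of the RefSeq start of each are shown. The sequences are from the RefSeq promoter table for GRCm38.p6, which held 5 of the 10 genes (Plod1, Plod3, Pcolce, Pcolce2 and Loxl4), and each is the part of the 250 bases ahead of the RefSeq start that lies upstream of the first annotated exon met. The stretch of Pcolce2 lies directly ahead of the annotated gene. That of Pcolce lies inside the gene's annotated span, since GENCODE M21 also lists Pcolce transcripts that begin further upstream, at up to position 137613784, so the 2 stretches are not placed alike. The capitals mark a GC box, the letters GGGCGG searched on both strands, which here lies on the strand opposite to the gene.
Pcolce, chr5:137611488-137611654, minus strand: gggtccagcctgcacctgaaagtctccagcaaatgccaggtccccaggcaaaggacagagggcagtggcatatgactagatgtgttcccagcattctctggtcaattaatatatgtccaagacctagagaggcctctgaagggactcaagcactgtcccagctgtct
Pcolce2, chr9:95637378-95637600, plus strand: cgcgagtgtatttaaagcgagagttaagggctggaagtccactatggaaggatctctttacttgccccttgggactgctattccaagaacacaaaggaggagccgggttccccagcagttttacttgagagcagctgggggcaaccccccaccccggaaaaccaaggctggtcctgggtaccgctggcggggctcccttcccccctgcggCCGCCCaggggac

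The GC box of Pcolce2 lay 35 to 40 bases ahead of the start, and that of Pcolce lay 55 to 60 bases ahead, in the 83 bases that are not printed because they fall in an annotated exon. A GC box was found in the windows of 4 of the 5 enzymes in the table and in 32.9% of the 27025 windows of all genes. Neither Pcolce nor Pcolce2 held CCAAT, present in 34.5% of all windows, or TATAAA, present in 13%, on either strand. The windows had a GC content of 58.8% for Pcolce and 61.2% for Pcolce2, against a median of 52% over all genes. These letters are a description of the windows only.

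Total reads per cell, spike-ins included, ran from 50276 to 1446059 with a median of 214893, and 1524 to 9885 genes were found per cell. In 6 cells the endogenous reads alone were below 50000. The cells of cluster 10 (125 cells, median 130406 reads) carried a summed level of 8 mural markers, smooth muscle and pericyte genes such as Myh11 and Notch3, of 7623 to 12756 per 500000 reads over its lines, against 435 to 751 in cluster 5 and 63.1 to 170 in the pooled cells of the other 9 clusters. Taken singly these reached 657 in 1 line of cluster 8, 408 in 1 line of cluster 4 and 242 or less elsewhere. Cluster 5 (76 cells, median 261652 reads) carried 3 sub-epithelial markers, Tnc, Bmp5 and Bmp7, at 631 to 1759 against 3.37 to 9.13. The summed level of 8 fibroblast markers was 15005 to 21517 in the pooled cells of the other 9 clusters (1278 cells), 15260 to 25162 in cluster 5 and 509 to 2218 in cluster 10. Clusters other than 10 are called fibroblast clusters here on these markers, several of which the study itself had used. Cluster 4, of 23 cells, had the lowest fibroblast sum among them, 7084 and 11183 in its 2 lines, with a mural sum of 43.7 and 408, and it was kept in every fibroblast class. The single lines of the other 8 of these clusters ran from 14221 to 24208. In cluster 5 this sum was carried by Col1a1 and Col1a2, while Lum (123 ± 113 against 1040 ± 179), Cd34 (89.5 ± 45.5 against 1057 ± 211), Fbln1 and Fbln2 were lower than in the other fibroblasts in 4 of 4 lines and without overlap. The summed level of 4 endothelial markers was 12.1 to 226 in cluster 10 and 5.34 to 21.5 in the fibroblast classes, and their part in the results below was not tested. Levels are given throughout as the mean over cells of reads per 500000 endogenous reads, for each line with at least 3 cells, followed by the mean ± SD over lines. Such a level is a share of a cell's reads and says nothing of how much RNA the cell held. The clusters were made by the study from the same counts, so a test between them tells only whether a difference recurred over lines beyond their spread.

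All 10 enzymes had a lower mean level in the mural cells of cluster 10 than in the fibroblast clusters, in each of the 4 lines in which both were sampled. For Lox in PdgfrbGFP the gap was small, at 91.1 against 93.9. How many of all genes were lower in every line, or did not overlap between classes, was not counted, here or for cluster 5. In the edgeR quasi-likelihood test on counts summed per line and class, with line as a block, 5 of the 10 passed a Benjamini-Hochberg adjusted p of 0.05 and a log2 difference of at least 1, all of them lower: Loxl1, Loxl4, Plod2, Pcolce and Pcolce2. The background of this comparison was 8.64% of 13861 genes tested (1197), of which 2.46% were higher and 6.18% lower in cluster 10, and 8.66% at the adjusted p alone. All 10 enzymes passed the filter on low counts, 8 had an unadjusted p under 0.05 (2786 of all 13861 genes did), and their median log2 difference was -2.37 where the median over all genes tested was -0.81. The comparison used 12 Acta2GFP, 3 C57BL6, 65 Cspg4dsRED and 45 PdgfrbGFP cells of cluster 10, and its fibroblast class included cluster 5.

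Loxl1, the lysyl oxidase known from elastic fibres (chr9:58287738-58313186, minus strand, GRCm38), stood at 4.01 in the Acta2GFP cells of cluster 10, 5.76 in C57BL6, 48.1 in Cspg4dsRED and 22.9 in PdgfrbGFP. In the fibroblasts of the same lines it stood at 425, 524, 536 and 388. The groups were far apart in every line, at 20.2 ± 20.5 against 468 ± 72.9 (SD, n = 4 lines). Loxl1 was lower by edgeR with a log2 difference of -5.13 (SE 0.691, Benjamini-Hochberg adjusted p = 6.19e-05). It is on a list of fibroblast genes the study chose on these cells, so its direction is not independent evidence.

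Pcolce2 (chr9:95637601-95698096, plus strand) stood at 4.19, 2.62, 1.05 and 11.2 in the cluster 10 cells of Acta2GFP, C57BL6, Cspg4dsRED and PdgfrbGFP. Its fibroblast levels were 171, 189, 186 and 202 in the same order. The fibroblasts of the 4 lines thus lay close together, at 187 ± 12.5 against 4.77 ± 4.48 in cluster 10, and nothing overlapped. The log2 difference was -5.84 (SE 0.858, edgeR adjusted p = 0.000164).

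Pcolce (chr5:137605103-137613784, minus strand) was lower as well. It stood at 144, 496, 161 and 164 in cluster 10 and at 995, 947, 1282 and 981 in the fibroblasts. The mural value of C57BL6, resting on 3 cells, stood well above the other 3, and no mural value reached a fibroblast one. The log2 difference was -2.27 (SE 0.383, edgeR adjusted p = 0.000714), and -1.46 with the median gene set at 0 (adjusted p = 0.0425).

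Plod2, the telopeptide lysyl hydroxylase (chr9:92542223-92608428, plus strand), stood at 19.3, 1, 2.4 and 22.5 in cluster 10 and at 143, 59.8, 34.2 and 73.7 in the fibroblasts of Acta2GFP, C57BL6, Cspg4dsRED and PdgfrbGFP. The classes did not overlap, although the fibroblast levels themselves were widely spread over lines. Its log2 difference was -3.80 (SE 1.01, edgeR adjusted p = 0.0280). Without the Acta2GFP line the adjusted p was 0.153, without Cspg4dsRED 0.143 and without PdgfrbGFP 0.0552, at log2 differences of -3.94, -3.53 and -4.55. The call was also lost with the median gene set at 0 (adjusted p = 0.104) and with cells scaled to 1 total (0.0646).

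Loxl4, a lysyl oxidase with scavenger receptor domains (chr19:42593982-42612813, minus strand), had few reads in cluster 10, 12 in all against 9716 in the fibroblasts. Its levels were 0.514, 0, 0.0524 and 0.351 in cluster 10 against 39.4, 22.5, 11.7 and 11.4. The groups did not overlap, and the log2 difference was -6.06 (SE 1.55, edgeR adjusted p = 0.0218). The edgeR adjusted p of Loxl4 was 0.0988 without Acta2GFP, 0.142 without Cspg4dsRED, 0.0697 without PdgfrbGFP and 0.0523 with the median gene set at 0, at log2 differences of -6.14, -5.62, -6.95 and -5.27.

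The other 5 enzymes did not pass the test. Plod1, the lysyl hydroxylase of the helical domain, stood at 88.5 ± 66.3 in cluster 10 and 231 ± 46.8 in the fibroblasts (log2 difference -1.73, edgeR adjusted p = 0.160). Plod3, which also carries glycosyltransferase activity, stood at 32.8 ± 24.1 against 103 ± 6.13 (-2.33, adjusted p = 0.155). Loxl3 stood at 27.1 ± 22.6 against 78.3 ± 12.5 (-1.96, adjusted p = 0.237). For these 3 genes the class levels did not overlap, a trait whose share over all genes was not counted. Lox, the founding member of its family, and Loxl2, which acts on collagen IV, did overlap. In PdgfrbGFP Lox was nearly as high in cluster 10 (91.1) as in the fibroblasts (93.9), while in C57BL6 it stood at 1 against 81. Loxl2 stood at 6.83 ± 8.66 against 22.8 ± 3.03, its highest mural level being the 19.7 of the 3 C57BL6 cells. Without the C57BL6 line, the sums of which held 470928 mural reads against 1884035 to 9073445 for the other lines, 5 of the 10 enzymes were called again, among 1041 genes.

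**Figure D1:**
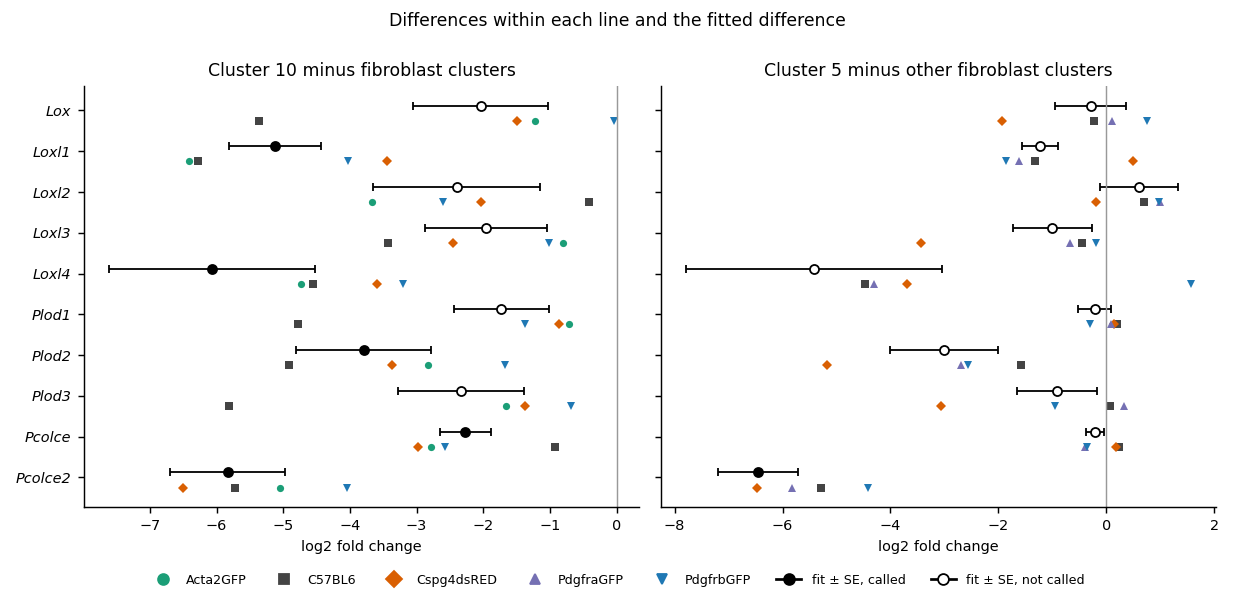
Log2 difference in reads between classes for each of the 10 enzymes, cluster 10 against all fibroblast clusters and cluster 5 against the other fibroblast clusters. Black points are edgeR estimates with bars of 1 SE, filled where called, and coloured points are the differences within each line. The vertical line marks 0, and the median over all genes tested was -0.81 and -0.69. All 10 estimates lie left of 0 for cluster 10, and Pcolce2 alone was called for cluster 5.

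The collagen substrates of these enzymes were lower along with them. Of the 6 substrate genes, 5 were called lower in cluster 10, with a median log2 difference of -3.24 over the 6: Col1a1 (-3.80), Col1a2 (-3.10), Col3a1 (-3.38), Col5a1 (-3.83) and Col5a2 (-3.07). Col1a1 stood at 263 ± 85.9 in the mural cells and 3724 ± 1076 in the fibroblasts. Elastin, the other substrate of the lysyl oxidases, stood at 84.8 ± 27.6 against 251 ± 65.4 and did not pass (-1.59, edgeR adjusted p = 0.0880). Col1a1 and Col1a2 mark the fibroblast class here, and both, with Col5a1, are on the study's list.

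Of 22 further genes of collagen synthesis and trimming, 20 were tested and 7 called, 6 lower and 1 higher, with a median log2 difference of -2.26 and 16 at an unadjusted p under 0.05. The gene that rose was P3h2, a prolyl 3-hydroxylase known to act on basement membrane collagen, at 82.6 ± 47 in cluster 10 against 0.422 ± 0.3 in the fibroblasts (log2 difference 8.06, SE 1.24, edgeR adjusted p = 0.000274). Those furthest down were Colgalt2, which adds galactose to hydroxylysine (-7.11, a fitted value that rests on 1 read in cluster 10 against 1592, adjusted p = 0.0252), P3h3 (-5.18, adjusted p = 0.00595) and Adamts2, the procollagen N-proteinase (-4.64, 18.5 ± 14 against 349 ± 45.3, adjusted p = 0.000330), all by edgeR with Benjamini-Hochberg adjustment. Bmp1, the C-proteinase that the PCOLCE proteins enhance, was called lower too, at 12.8 ± 14.7 against 171 ± 31.8 (-4.35, adjusted p = 0.00656).

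Within the fibroblasts, cluster 5, the sub-epithelial cells, was compared with the other 9 fibroblast clusters in the 4 lines that held at least 3 of its cells (15 C57BL6, 3 Cspg4dsRED, 22 PdgfraGFP and 36 PdgfrbGFP cells). A single enzyme of the 10 was called, Pcolce2, and it was lower. The background was 1.07% of 13988 genes tested (150), with 0.450% higher and 0.622% lower, and 1.08% at the adjusted p alone. Pcolce2 stood at 4.3, 1.16, 0.89 and 8.95 in the cluster 5 cells of C57BL6, Cspg4dsRED, PdgfraGFP and PdgfrbGFP. In the other fibroblasts it stood at 205, 190, 107 and 211. The level of cluster 5 was thus near the 4.77 ± 4.48 of the mural cells, at 3.82 ± 3.75 against 178 ± 48.6 in the other fibroblasts, without overlap. The log2 difference was -6.46 (SE 0.734, edgeR adjusted p = 0.00200), and Pcolce2 was called in all 14 alternatives that gave a value, with estimates from -7.21 to -5.53. The mural markers did not move as a set in cluster 5. Acta2 stood at 412 ± 136 against 47.1 ± 12.6 and Tagln at 67.6 ± 23.5 against 9.81 ± 2.93, both higher in 4 of 4 lines, whereas Des stood at 0.704 ± 0.369 against 23.4 ± 15.3, lower in 4 of 4. Myh11 and Cspg4 were higher in 3 of 4 lines, and Notch3, Mcam and Rgs5 stood below 1 in both classes. All 8 mural markers had a read in cluster 5, and their part in the cluster 5 results was not tested.

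Pcolce took the other course. It stood at 1100, 1434, 749 and 772 in the cluster 5 cells of C57BL6, Cspg4dsRED, PdgfraGFP and PdgfrbGFP and at 933, 1278, 982 and 992 in the other fibroblasts. Cluster 5 was the higher in 2 lines and the lower in the other two, and the means were 1014 ± 323 and 1046 ± 157. The log2 difference of Pcolce was -0.21 (SE 0.166, edgeR adjusted p = 0.794), so that no difference of Pcolce was detected. The median over all genes tested was -0.69, and with the median gene set at 0 the value of Pcolce turned to 0.49.

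Plod2 and Loxl1 had lower values in cluster 5 without passing the test. Plod2 stood at 20.5, 0, 9.12 and 12.1 against 63.2, 35, 64.7 and 76.8, lower in 4 of 4 lines and without overlap (log2 difference -3.02, SE 1.00, edgeR adjusted p = 0.233). It was called with DESeq2 (adjusted p = 0.0153) and with sums per plate (0.0265). Loxl1 stood at 218, 749, 189 and 110 in cluster 5 and at 551, 531, 585 and 402 in the other fibroblasts of the same lines. It was lower in 3 lines and higher in the 3 Cspg4dsRED cells, with a log2 difference of -1.23 (SE 0.334, edgeR adjusted p = 0.141). Loxl1 was called in 5 of 14 alternatives, without the Cspg4dsRED line or with at least 10 cells per sum (-1.66, adjusted p = 0.0282), without the filter (0.012), with limma (0.0307) and with sums per plate (0.002).

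Loxl4 was close to 0 in the cluster 5 cells of 3 lines (0.144, 0 and 0.13 in C57BL6, Cspg4dsRED and PdgfraGFP) and stood at 32.8 in those of PdgfrbGFP, where the other fibroblasts had 10.4. Its log2 difference was -5.42 with an SE of 2.37 (edgeR adjusted p = 0.449), an estimate the lines did not share. Lox (-0.29), Loxl2 (0.61), Loxl3 (-1), Plod1 (-0.22) and Plod3 (-0.92) had edgeR adjusted p values of 0.767 to 0.935, and with the median gene set at 0 Lox turned to 0.40 and Plod1 to 0.48. Over the 10 enzymes the median was -0.96, and 4 had an unadjusted p under 0.05, as did 1458 of all 13988 genes.

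In the same cells Col1a1 and Col1a2 rose, with log2 differences of 1.05 (edgeR adjusted p = 0.00160) and 1.10 (adjusted p = 0.00102), and Eln fell (-4.60, adjusted p = 0.0249). Col1a1 stood at 7028 against 4106 in C57BL6, 6395 against 2307 in Cspg4dsRED, 10907 against 3814 in PdgfraGFP and 6029 against 3213 in PdgfrbGFP, higher in every line. Col3a1 (0.58, adjusted p = 0.0444) stayed under the required difference of 1, and Col5a1 (1.15, adjusted p = 0.104) and Col5a2 (1.12, adjusted p = 0.0750) did not pass the edgeR test. None of the 20 other collagen pathway genes tested was called by edgeR, with 3 at an unadjusted p under 0.05. Adamts2 stood at 175 ± 37.5 against 329 ± 41.4 and Bmp1 at 81.8 ± 51.5 against 168 ± 26, both lower in 4 of 4 lines but not called.

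**Figure D2:**
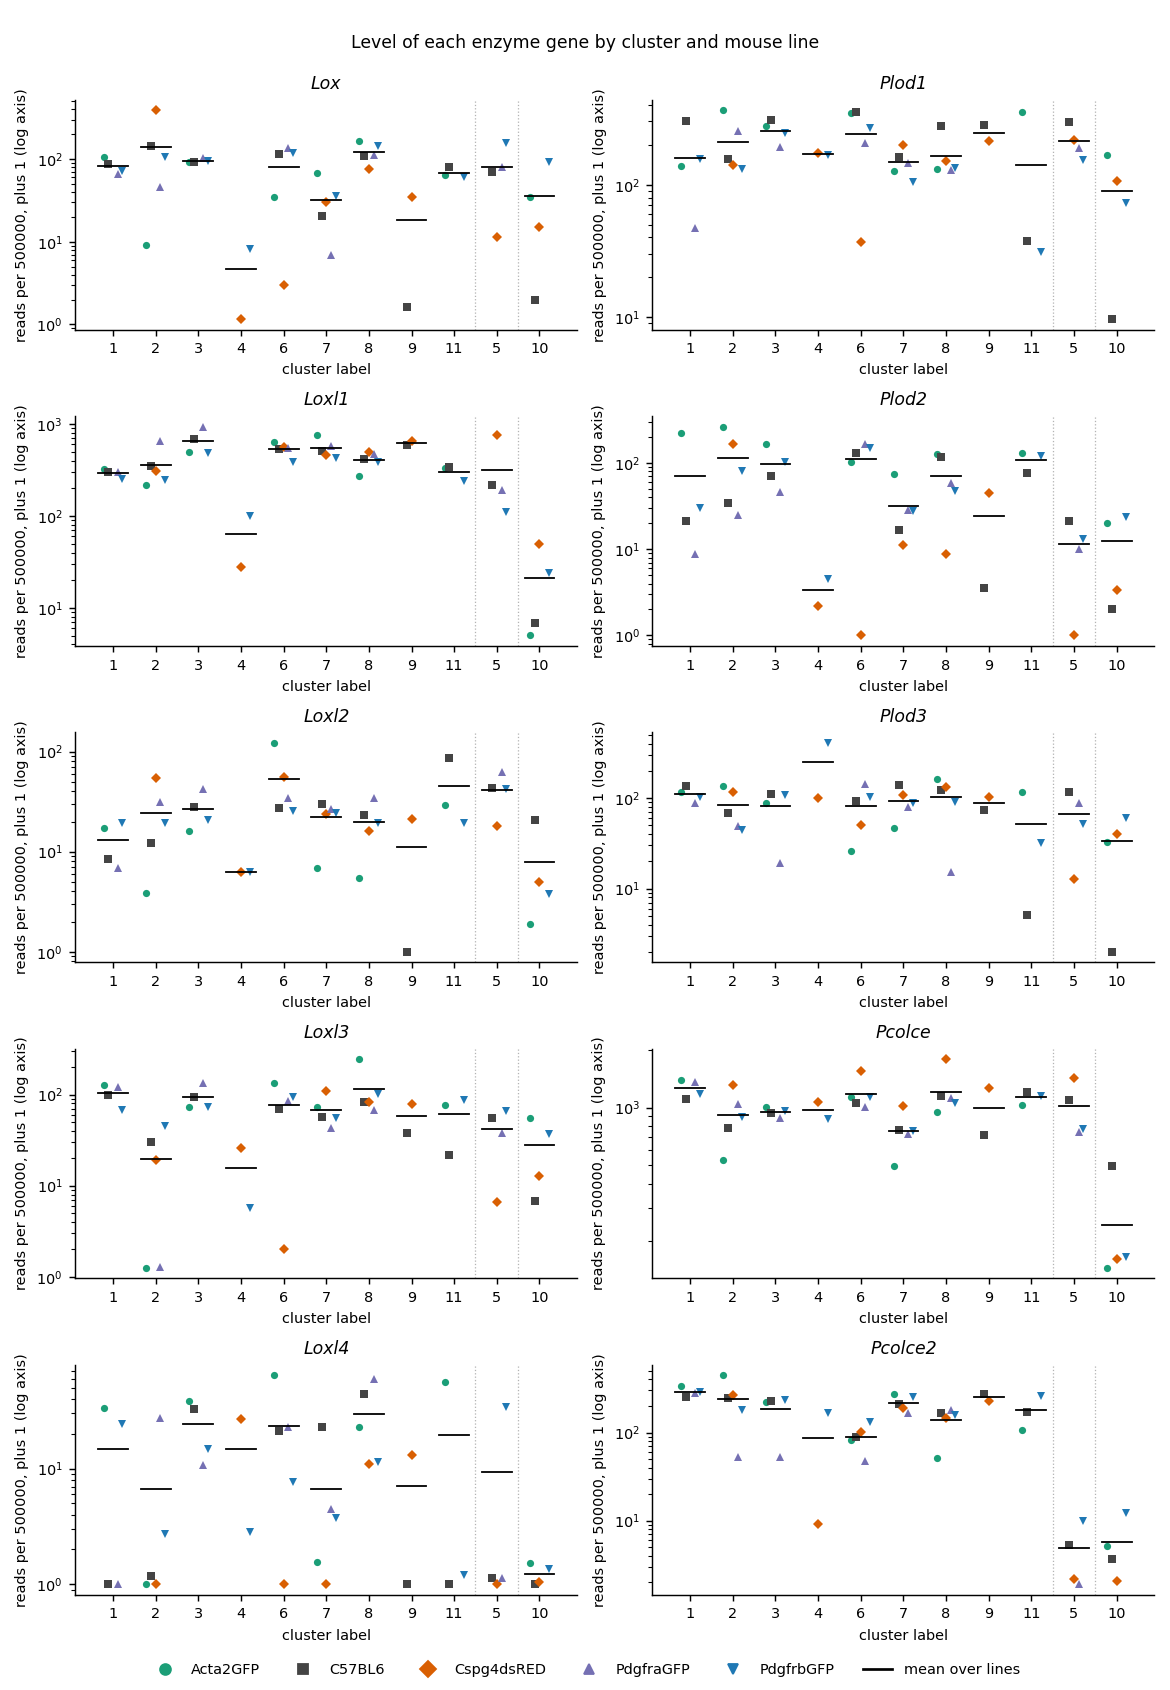
Level of each enzyme in each cluster, as reads per 500000 endogenous reads on a log axis; each point is a line with at least 3 cells and each bar the mean over lines. Pcolce2 drops to 3.82 in cluster 5 and 4.77 in cluster 10 while Pcolce stands at 1014 in cluster 5 and 241 in cluster 10.

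Across the remaining 9 fibroblast clusters few differences passed the test. When each of them was set against the rest, 2 calls were made for the 10 enzymes in the 9 fits, Loxl1 in cluster 4 and Plod2 in cluster 7, and both were lower. The background was 0.746% of the genes tested in cluster 4, 0.471% in cluster 7, 0.198% in cluster 2, 0.0454% in cluster 9, 0.0303% in cluster 11, 0.0284% in cluster 1, 0.0217% in cluster 8, 0.0147% in cluster 6 and 0.00688% in cluster 3. In these last 7 no enzyme was called by edgeR and 0 to 3 had an unadjusted p under 0.05. The edgeR test of any difference among the 10 fibroblast clusters, over 39 sums of 5 lines, called 2 of the 10 enzymes, Pcolce2 (adjusted p = 6.35e-05) and Pcolce (adjusted p = 0.0207), against a background of 6.01% of 15237 genes. With cluster 5 left out the adjusted p of Pcolce2 was 0.281. The call of Pcolce was lost without Acta2GFP (edgeR adjusted p = 0.0759), C57BL6 (0.14), PdgfraGFP (0.151) or PdgfrbGFP (0.192), without the filter on low counts (0.122) and without the line block (0.434). Plod2 had 0.0533, Loxl1 0.0837 and Lox 0.240 in that edgeR test, and 5 of the 10 had an unadjusted p under 0.05. Plod2 passed in 8 of 14 alternatives (adjusted p from 0.00105 to 0.612 over all of them) and Loxl1 in 6 (7.66e-10 to 0.843), both without Cspg4dsRED among them (0.0425 and 0.0204). Of the 21 other pathway genes tested, P3h2 alone passed (adjusted p = 0.0441).

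Loxl1 in cluster 4 stood at 26.5 in 17 Cspg4dsRED cells and 99.5 in 4 PdgfrbGFP cells, the lowest of the fibroblast clusters, where the other means ran from 293 ± 28.2 in cluster 1 to 652 ± 211 in cluster 3. The log2 difference was -2.82 (SE 0.640, edgeR adjusted p = 0.00259), over 2 lines only. The call was lost in 3 of the 6 alternatives that could be fitted. The adjusted p was 0.478 with DESeq2, 0.335 with limma and 0.314 with edgeR without the line block. Lox (3.69 ± 4.99), Loxl2 (5.31 ± 0.0303) and Plod2 (2.36 ± 1.64) also had their lowest mean of any cluster in cluster 4, whereas Plod3 stood at 98.9 and 407 there, its highest mean of any cluster.

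Plod2 in cluster 7 stood at 74.1 in Acta2GFP and 10.1 in Cspg4dsRED, with 15.6 in C57BL6, 27.8 in PdgfraGFP and 26.7 in PdgfrbGFP. In cluster 6 Acta2GFP had 102, Cspg4dsRED 0 and the other 3 lines 130, 163 and 149, so 4 of the 5 were higher there and Cspg4dsRED was lower. The log2 difference of cluster 7 from the rest was -1.68 (SE 0.241, edgeR adjusted p = 0.0306), and it lost the call without any one of 4 lines, with adjusted p values of 0.0606 (Acta2GFP) to 0.160 (PdgfrbGFP).

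Ordered by their mean over lines, most neighbouring clusters did not differ beyond the spread of their paired difference. For Pcolce, cluster 1 led at 1259 ± 139 (4 lines), followed by clusters 8, 6 and 11, and the 2 steps that exceeded their spread were at the low end, from cluster 2 (914 ± 294) to cluster 7 (752 ± 185) and from there to cluster 10. For Pcolce2, cluster 1 led again at 288 ± 34.1, with 336, 255, 277 and 286 in its lines, ahead of cluster 9 (249 ± 31.1), cluster 2 (238 ± 142) and cluster 7 (218 ± 42.9). Cluster 6 was lower, with Pcolce2 at 80.3, 87.4, 101, 47 and 129 in Acta2GFP, C57BL6, Cspg4dsRED, PdgfraGFP and PdgfrbGFP against 271, 210, 190, 167 and 251 in cluster 7. The 1 Pcolce2 step beyond its spread was from cluster 11 to cluster 8. Clusters 6 and 7 did not overlap. Cluster 4 stood at 86 ± 110 over its 2 lines, with 8.25 in 17 Cspg4dsRED cells and 164 in 4 PdgfrbGFP cells.

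Lox had its most even level in cluster 3 (91.6, 90.4, 103 and 93.5 over 4 lines). It was higher in cluster 8, at 120 ± 34.3, a step beyond the spread over their shared lines, and stood at 31 ± 22.4 in cluster 7 and 17.2 ± 23.4 in cluster 9. Its highest mean, 138 ± 149 in cluster 2, varied by more than its own size. Loxl2 was highest in clusters 6 (51.9 ± 40.4), 11 (44 ± 35.9) and 5 (40.3 ± 18), and the steps from cluster 5 to cluster 3 (25.8 ± 11.5) and from there to cluster 2 exceeded their spread. For Loxl4 the steps from cluster 6 to 11 and from cluster 1 to 5 did, the second with the paired difference opposite to the order of the means. Loxl3 was highest in clusters 8 (115 ± 72.6) and 1 (103 ± 26.9). Plod1 lay between 140 ± 185 in cluster 11 and 255 ± 50 in cluster 3 among the fibroblasts. For Loxl1, Loxl3, Plod1, Plod2 and Plod3 no step between neighbouring clusters exceeded its spread, where at least 3 lines were shared.

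Per kilobase of exon, on which scale different genes can be set side by side, Loxl1 made up 63.7% (cluster 4) to 91.2% (cluster 9) of the summed lysyl oxidase level in the fibroblast clusters as a mean over lines. Single lines fell below this, to 35% in cluster 5 (mean 64.9 ± 25.5%) and 38.9% in cluster 4 (mean 63.7 ± 35%). In the mural cells it made up 30.3 ± 27.6%, beside 26.8 ± 23% for Lox, 27.9 ± 20.5% for Loxl3, 14.7 ± 25.6% for Loxl2 and 0.224 ± 0.268% for Loxl4, while the sum itself was 20.7 ± 11.3 per kilobase against 27.4 ± 9.53 in cluster 4 and 131 to 248 in the other fibroblast clusters. The mural lines did not share a leading gene: Loxl1 made up 69.8% in Cspg4dsRED, Loxl3 57.9% in Acta2GFP, Lox 55.3% in PdgfrbGFP and Loxl2 53% in the 3 C57BL6 cells. Among the lysyl hydroxylases Plod2 took 52.9 ± 25.4% in cluster 11, with 23.7% in its 43 Acta2GFP cells and up to 68.9% in the lines of 3 C57BL6 and 5 PdgfrbGFP cells. It took 22.8% in cluster 6, 13% in cluster 7, 9.47% in cluster 10, 3.71% in cluster 5 and 0.517% in cluster 4, whereas Plod1 took 68.1% in cluster 5 and Plod3 62% in cluster 4. Pcolce2 took 20.1% of the enhancer level in cluster 7, 5.87% in cluster 6, 2.16% in cluster 10 and 0.359 ± 0.410% in cluster 5.

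**Figure D3:**
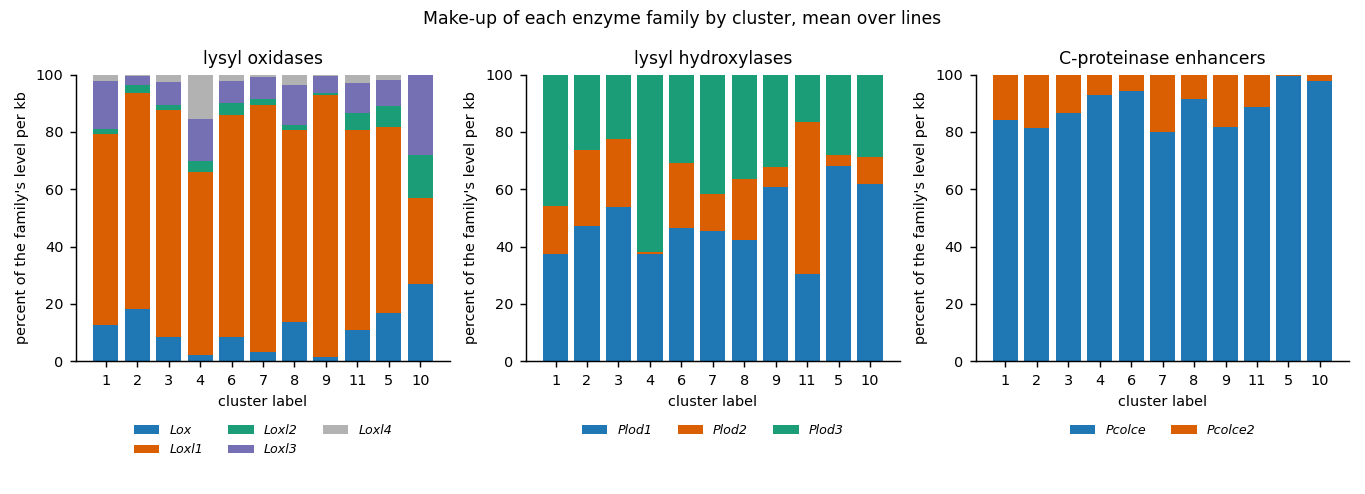
Share of each enzyme in the summed level of its family per kilobase of exon, by cluster, as a mean over lines in percent. Loxl1 takes 63.7% or more of the mean lysyl oxidase bar in each fibroblast cluster, the mean of the mural cluster 10 joins lines led by different genes, and the Pcolce2 band is nearly gone in clusters 5 and 10.

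The share of cells with a read was compared at an equal depth of 50000 endogenous reads, drawn at random from each cell, and the 6 cells below this depth were not used. A Pcolce2 read was found in 32 of 125 mural cells (25.6%, 95% Clopper-Pearson interval 18.2% to 34.2%), in 25 of 76 cluster 5 cells (32.9%, 22.5% to 44.6%) and in 999 of 1272 other fibroblasts (78.5%, 76.2% to 80.8%). These intervals cover counting error only. They treat cells pooled over lines as independent, although cells share lines and plates, and the reads carry no molecular identifiers. By line and without thinning, the mural share of Pcolce2 ran from 16.9% (Cspg4dsRED) to 68.9% (PdgfrbGFP). In cluster 5 it ran from 18.2% (PdgfraGFP) to 94.4% (PdgfrbGFP). Set beside this, the 8 fibroblast markers had a read in 35.2% (Pdgfra) to 97.6% (Dcn) of the mural cells, all above the share of Pcolce2 there. At 10 or more reads these markers were found in 0.8% (Pdgfra) to 56% (Col1a2) of the mural cells. Whether such reads were stray or the cells' own was not tested. The 8 mural markers had a read in 3.77% (Notch3) to 64.9% (Acta2) of the other fibroblasts. In cluster 5 the 8 mural markers ranged from 1.32% of cells with a read (Notch3) to 81.6% (Acta2). Median totals before thinning were 130406 reads in the mural cells, 261652 in cluster 5 and 222512 in the other fibroblasts. Without thinning the Pcolce2 shares were 40.8% in the mural cells, 65.8% in cluster 5 and 86.7% in the other fibroblasts. At equal depth cluster 4, counted among the other fibroblasts, had a Pcolce2 read in 5 of 21 cells (23.8%, interval 8.22% to 47.2%). At 10 or more reads Pcolce2 was found in 0 of 125 mural cells (upper limit 2.40%, set by 3 counts), in 0 of 76 cluster 5 cells (upper limit 3.95%) and in 699 of 1272 other fibroblasts (55%).

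Pcolce itself was found in 76.8% of the mural cells, below Fbln1 (84%), Col1a1 (86.4%), Col1a2 (87.2%) and Dcn there, all cluster 5 cells and 99.7% of the other fibroblasts. Loxl1 was found in 48%, 84.2% and 95.7%, Plod2 in 17.6%, 25% and 62.1%, and Loxl4 in 1.60%, 14.5% and 12.7% of the same classes. Loxl2 was the enzyme found most often in cluster 5 relative to the other fibroblasts, at 60.5% against 42.4%, with 13.6% in the mural cells. No lysyl oxidase read at all was found in 27 of 125 mural cells (21.6%), 20 of 1272 other fibroblasts (1.57%) and 0 of 76 cluster 5 cells. No lysyl hydroxylase read was found in 43.2% of the mural cells, 9.21% of cluster 5 and 5.11% of the other fibroblasts.

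The spread between single cells was followed in the PdgfrbGFP line, the best sampled one. The median Pcolce2 level was 197 in 223 cells of cluster 3 (quartiles 82.5 and 338), 171 in 142 cells of cluster 7 (quartiles 19.9 and 438), 8.00 in 36 cells of cluster 5 and 9.81 in 45 cells of cluster 10. The highest cell of cluster 5 reached 32.1 and the highest of cluster 10 reached 74.6, both below the lower quartile of cluster 3 but above that of cluster 7. The median of Loxl1 was 443, 392, 52.4 and 14.9 in clusters 3, 7, 5 and 10, and that of Pcolce 907, 716, 690 and 100. The lowest Pcolce level of any cluster 5 cell was 260. For Plod2 the medians were 73.9, 5.21, 2.34 and 3.38, so that cluster 7 stood nearer to clusters 5 and 10 than to cluster 3.

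**Figure D4:**
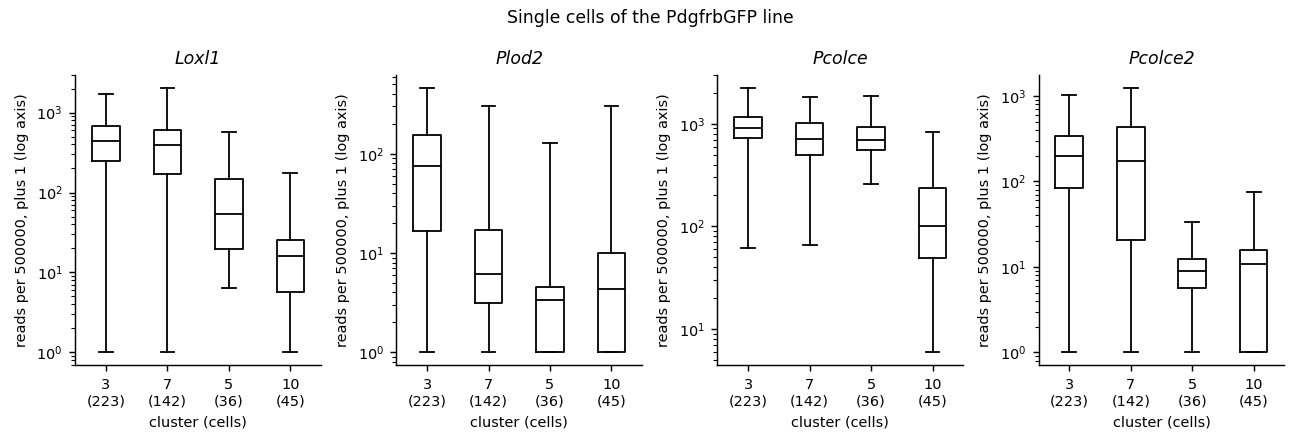
Level in single PdgfrbGFP cells of clusters 3, 5, 7 and 10 for Loxl1, Plod2, Pcolce and Pcolce2, in reads per 500000 (log axis). Each box gives the quartiles and median of the cells, with whiskers to the lowest and highest cell. For Pcolce2 every cell of clusters 5 and 10 lies below 82.5, the lower quartile of cluster 3, while for Pcolce the cells of cluster 5 (median 690) lie among those of clusters 3 and 7.

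To set the lines beside each other, the levels of clusters 6, 7 and 8, which held at least 3 cells in all 5 lines, were averaged with equal weight. Cluster 2 also held at least 3 cells in all 5 lines but was not included in this mean. A line is 1 sample and coincides in part with the sort and the plate, so no test was made. Plod2 stood at 6.00 in Cspg4dsRED, where the other lines had 100 (Acta2GFP), 86.7 (C57BL6), 82.9 (PdgfraGFP) and 74.4 (PdgfrbGFP). Lox stood at 35 in Cspg4dsRED and 87.5, 80.2, 84.9 and 97.7 in the others, and Loxl4 at 3.32 in Cspg4dsRED and 28.5, 28.3, 27.9 and 6.63. Cspg4dsRED, with 28 cells, thus had the lowest mean for all 3 genes, and PdgfrbGFP, with 392 cells, was near it for Loxl4. The Cspg4dsRED mean rests in part on the 3 cells of cluster 6, where Lox stood at 2.02 and Plod2 and Loxl4 at 0. In cluster 7 Lox was higher in Cspg4dsRED (29.1) than in C57BL6 (19.4) or PdgfraGFP (5.98), and in cluster 8 Loxl4 stood at 9.96 against 10.4 in PdgfrbGFP. Cluster 2, outside this mean, had another order for Lox and Plod2. Its 4 Cspg4dsRED cells had the highest Lox, at 388 against 8.25 to 145 in the other lines. Their Plod2 stood at 165, above all lines but Acta2GFP (263), and their Loxl4 at 0.

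Over clusters 6, 7 and 8 Pcolce showed the opposite order, with 1453 in Cspg4dsRED and 861 to 988 in the other lines. In cluster 2 Pcolce was highest in Cspg4dsRED as well (1319). Loxl1 lay between 399 and 553, Plod1 between 128 and 262, Plod3 between 76.7 and 118 and Pcolce2 between 131 and 179. Loxl3 was high in Acta2GFP, at 149 against 63.2 to 82.7. The 3 PdgfrbGFP plates gave a measure of the spread between plates of a line. Plod2 was similar on all of them, at 79.1, 64 and 72.5, and Pcolce ran from 881 to 1105. Loxl4 stood at 17.5 on the plate that also held the Acta2GFP cells (28.5 there), and at 3.56 and 3.39 on the others.

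**Figure D5:**
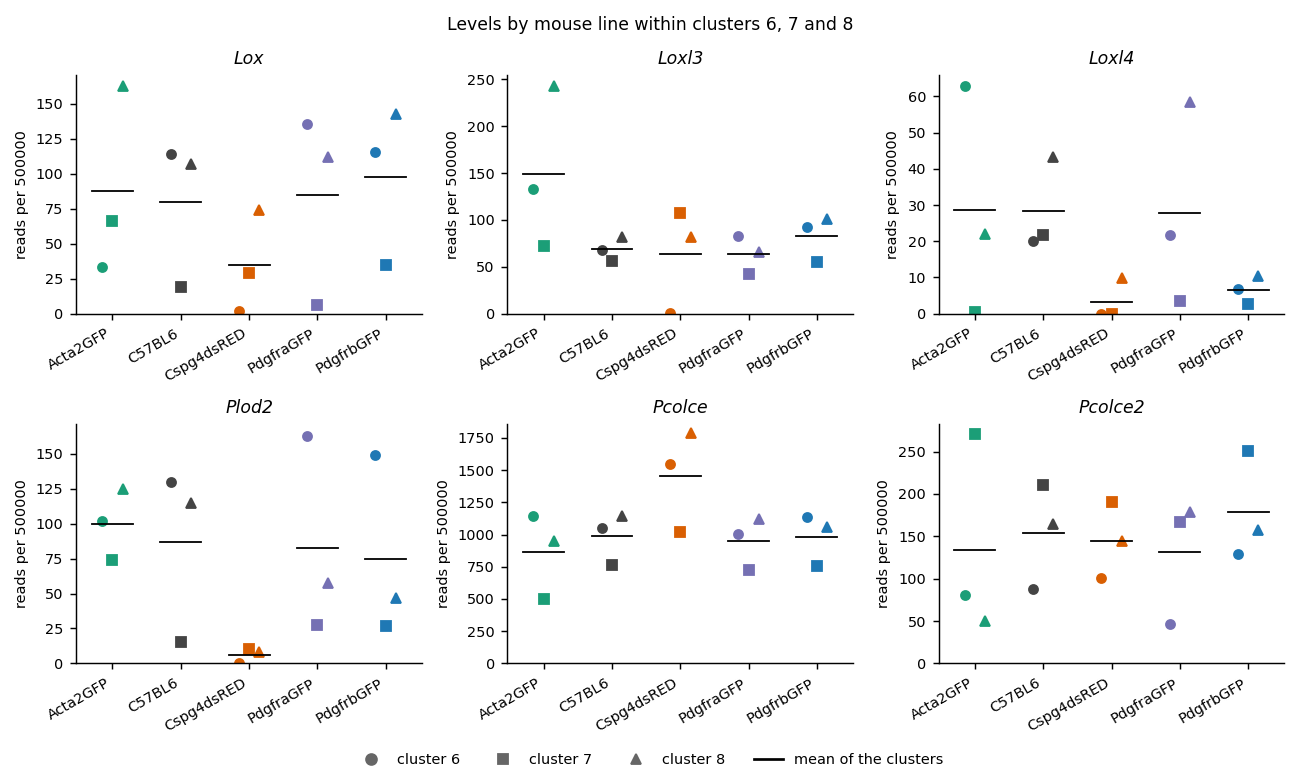
Levels of Lox, Loxl3, Loxl4, Plod2, Pcolce and Pcolce2 by line in the fibroblast clusters 6, 7 and 8, as reads per 500000 endogenous reads. Each point is 1 cluster and each bar the equal-weight mean. By this mean, which leaves out cluster 2, Cspg4dsRED is lowest for Lox (35), Loxl4 (3.32) and Plod2 (6.00) and highest for Pcolce (1453).

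For each enzyme the genes with the most similar profile were found by Pearson correlation of log2 CPM, centred within line, over the 43 line and cluster sums among 15807 genes. The sums share lines, plates and the division into clusters, so the coefficients are a description. Pcolce2 went with Slc43a3 (r = 0.906), Cd34 (0.895) and Lum (0.885), and Pcolce with Serpinf1 (0.892), Podn (0.884) and Dcn (0.883). Loxl1 went with Cdc42ep2 (0.921), Pid1 (0.884) and Tmed3 (0.881). The other enzymes had no partner at these values: the closest were Ift27 for Loxl3 (0.853), Sema3d for Plod2 (0.805), Ifit2 for Lox (0.801), Xbp1 for Plod1 (0.778), Eps8 for Loxl4 (0.773), Gm38316 for Plod3 (0.764) and Gm13372 for Loxl2 (0.736).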

How the data were processed

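Single cells of mouse bladder were sorted into the wells of plates and made into Smart-seq2 libraries, 1 per cell. The whole-number read counts per gene were deposited by the authors as a single table and are not normalized. Per the study's methods and the submitters' processing notes, reads were demultiplexed with bcl2fastq, trimmed, aligned to GRCm38 (mm10) by TopHat2 running on Bowtie or Bowtie2, and counted with featureCounts of the Subread package. The annotation release and the use of strand are not given in the sources used here, so reads of genes that overlap an enzyme could not be told apart: Htra2 shares 11.6% of the exon length of Loxl3, Znhit1 11.7% of Plod3, Gm38391 6.42% of Plod2 and Gm27177 5.57% of Loxl2. The authors had removed cells with few reads or genes, cells with very many genes as potential doublets, and cells with endothelial or immune transcripts. No further cell was left out here and no doublet caller was run.

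Clusters and lines are those of the sample labels, and every column matched 1 sample. The 92 ERCC spike-in entries were kept out of all totals, and no 2 cells held identical counts. Levels were scaled to 500000 endogenous reads per cell, averaged per line with at least 3 cells, and divided by the exon length in GENCODE M21 (46005 of the gene identifiers matched) wherever different genes were compared. Counts were summed per line and class and tested across all genes with edgeR 4.0.16 in R 4.3.3 (TMM, filterByExpr, quasi-likelihood test, line as a block), with Benjamini-Hochberg adjustment over all genes tested. A gene was called at an adjusted p under 0.05 and an absolute log2 difference of at least 1, and in the test of any difference at the adjusted p alone. The sums of a line share its mice and plates, which is the source of the pairing by line. The functions were tested on simulated data first. Alternatives were median-of-ratios scaling, no filter, DESeq2 1.42.0, limma 3.58.1 with voom, no line block, sums per plate, leaving out each line, at least 10 cells per sum, the median gene at 0, a log2 threshold of 2, cells scaled to 1 total, and leaving out cluster 5.

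The 10 enzymes, the lists of 6 substrates and 22 further collagen pathway genes and the markers were chosen with earlier results of these data known. The text names all 10 enzymes and, of the pathway list, up to 3 called genes per direction with the largest difference and up to 5 of the test of any difference. For each enzyme the genes with the most similar profile were found. Bmp1 and Adamts2 are also named for their part in trimming procollagen.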

Additional observations from a re-analysis of the deposited data

Results flagged for a closer look

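For each enzyme and each group of 4 or 5 lines, the line furthest from the others was compared with the group's range by Dixon's criterion. Of 110 groups tested 20 had such a line, where chance gives about 1 in 20 groups, and the lines repeat between groups, so the values are not independent of each other. No explanation was tested.

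In the mural cells of cluster 10, the 3 C57BL6 cells stood apart for Pcolce, at 496 against 144 to 164, and for Loxl2, at 19.7 against 0.911 to 3.98. In cluster 5, the 3 Cspg4dsRED cells stood apart for Loxl1, at 749 against 110 to 218, and the PdgfrbGFP cells for Loxl4, at 32.8 against 0 to 0.144.

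Cspg4dsRED was high for Pcolce in the fibroblasts as a whole, at 1282 against 947 to 995, in cluster 6, at 1550 against 1003 to 1140, and in cluster 8, at 1791 against 947 to 1146. Averaged over clusters 6, 7 and 8 it was high for Pcolce, at 1453 against 861 to 988, and low for Lox, at 35 against 80.2 to 97.7, and for Plod2, at 6.00 against 74.4 to 100. Cluster 2, not in this mean, had its highest Lox in Cspg4dsRED (388).

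Acta2GFP was high for Plod2 in cluster 1 (220 against 7.82 to 28.9) and cluster 7 (74.1 against 10.1 to 27.8), and for Loxl3 in cluster 8 (243 against 66.2 to 101) and over clusters 6, 7 and 8 (149 against 63.2 to 82.7). It was low for Loxl2 in cluster 7 (5.88 against 22.5 to 29.1) and for Pcolce2 in cluster 8 (50.2 against 145 to 179). C57BL6 was high for Loxl4 in cluster 7 (21.8 against 0 to 3.51) and Plod1 in cluster 8 (274 against 129 to 150). PdgfraGFP was high for Loxl4 in cluster 2 (26.4 against 0 to 1.71) and low for Pcolce2 in cluster 3 (51.7 against 219 to 235).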

How the results depend on the processing

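In the comparison of cluster 10, Loxl1, Pcolce and Pcolce2 were called under all 14 alternatives, and the calls of Loxl4 and Plod2 were the ones lost, so that 3 to 5 enzymes were called with a line left out (3 without Acta2GFP, without Cspg4dsRED or without PdgfrbGFP) and 3 with the median gene at 0. Over these alternatives the adjusted p of edgeR, limma or DESeq2 ran from 2.87e-07 to 0.142 for Loxl4 and from 0.000292 to 0.153 for Plod2, and Loxl4 was not tested with sums per plate. For cluster 5, the 1 enzyme called became 2 without the filter, with limma and with at least 10 cells per sum, 3 with DESeq2 and with sums per plate, and 1 to 2 with a line left out. The uncalled log2 difference of Lox in cluster 5 turned positive with limma (0.39), without the replicate block (0.20), with sums per plate (0.33), with at least 10 cells per sum (0.34) and with the median gene at 0 (0.40), and ran from -0.70 to 0.34 with a line left out (0.34 without Cspg4dsRED). The median gene at 0 also turned Plod1 (0.48) and Pcolce (0.49).

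The 2 calls over the 9 other clusters became 5 with DESeq2, 1 with sums per plate, 0 with at least 10 cells per sum, 0 to 1 with a line left out and 0 without the replicate block, which pairs the sums of a line. The 2 enzymes that differed among the fibroblast clusters became 6 with limma, 4 with sums per plate, 5 with at least 10 cells per sum, 1 without cluster 5 and 1 to 4 with a line left out.

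Over all genes, the 1197 called for cluster 10 became 2906 with DESeq2, 625 with cells scaled to 1 total and 458 to 1041 with a line left out. With the median gene at 0 there were 870, of which 518 were higher and 352 lower, against 341 and 856. For cluster 5, 150 became 246 without the filter, 1354 with DESeq2, 539 with limma, 364 without the replicate block, 764 with sums per plate and 109 to 218 with a line left out, and the median gene at 0 gave 127 higher and 47 lower against 63 and 87. Among the fibroblast clusters, 916 became 1411 with limma, 1866 without the replicate block, 1717 with sums per plate, 609 with at least 10 cells per sum, 375 without cluster 5 and 141 to 778 with a line left out. The cause of these shifts was not tested. Plate sums, leaving out a line and at least 10 cells per sum could not be fitted for cluster 4, the last not for clusters 1, 9 and 11 either, and leaving out a line not for cluster 9. Sums of few cells, 3 in C57BL6 for cluster 10 and in Cspg4dsRED for cluster 5, limit both comparisons.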

Other observations

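The enzymes were also set beside their substrates over the 43 line and cluster sums, as Pearson correlations of log2 CPM centred within line. The sums share lines, plates and clusters, so these are descriptions of this set of sums. With cluster 10 included, Pcolce went with Col3a1 (r = 0.868) and Col1a1 (0.838) and Loxl1 with Col1a1 (0.794). Over the 39 fibroblast sums the same pairs stood at 0.441, 0.314 and 0.206. Loxl1 and Eln took the opposite course, from 0.436 over all sums to 0.719 over the fibroblasts. Pcolce2 and Col1a1 went from 0.369 to -0.449. Pairs that changed little were Lox with Plod2 (0.645 and 0.597) and Lox with Loxl2 (0.535 and 0.619).

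The number of enzymes of a family found in the same cell was counted at 50000 reads. All 5 lysyl oxidases were found in 0.8% of the mural cells, 7.89% of cluster 5 and 3.07% of the other fibroblasts. All 3 lysyl hydroxylases were found in 5.60% of the mural cells, 13.2% of cluster 5 and 38.8% of the other fibroblasts. Both PCOLCE genes were found in 23.2%, 32.9% and 78.5%, and neither in 20.8% of the mural cells, 0 of 76 cells of cluster 5 and 0.236% of the other fibroblasts.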
